A study of Danio rerio with 6 samples.

Results

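The transcripts described here are 52 probe sets of a zebrafish expression array, those whose ID carries a transcript cluster number from 9800 to 9899, out of 15502 probe sets tested. They were chosen by the number in their ID alone, whatever their level or difference. The range was proposed with earlier results of these data known, so the differences below describe these probe sets and support nothing beyond them. The 52 probe sets fall into 45 clusters, and the platform annotation gives 40 of them 1 gene symbol each, for 34 genes, and leaves 12 without a symbol.

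Whole larvae at 5 days post fertilisation (dpf) came from crosses of fish heterozygous for cdipt hi559Tg and were divided by their appearance into mutant and wild type larvae. The gene cdipt encodes phosphatidylinositol synthase, which joins inositol to CDP-diacylglycerol. Of the 6 arrays, 3 carried RNA of mutant pools and 3 RNA of wild type pools, each from 25 animals. Wild type is a phenotype here, so these pools can hold both carriers and larvae without the allele, and both phenotypes share the strain label, the age and the sorting step. The labels do not say whether pools of a phenotype came from separate clutches, so each p-value rests on pool-to-pool spread that may be technical only. Levels are in array standard deviations (SDs): each array was deposited with its median at 0, and 1 unit is the SD over its rows. A difference of 1 array SD cannot be turned into a fold change, because the SD before scaling was not part of the sources.

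Many of the named genes encode parts of the phototransduction cascade of rods and cones. In that cascade light activates an opsin, the opsin activates the G protein transducin, and the transducin alpha subunit switches on a phosphodiesterase (PDE6) that breaks down cyclic GMP. The drop in cyclic GMP closes channels in the outer segment membrane, and recoverin, phosducin, the RGS9 complex and guanylyl cyclases tune the response or end it. Rods and cones use separate genes for transducin and PDE6, so the genes also mark which kind of photoreceptor is being read.

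Of the 52 probe sets, 23 were lower in mutant larvae than in wild type larvae and 0 were higher (limma, Benjamini-Hochberg adjusted p under 0.05 over all 15502 probe sets). Among all probe sets tested, 281 were lower (1.81%) and 190 higher (1.23%), 3.04% together. At an unadjusted p under 0.05, 27 of the 52 were lower (8.69% of all probe sets) and 0 higher (8.18% of all). With limma's array weights 4 were called higher: Dr.9808.1.S1_at, uhrf1, bcl2l13 and mblac1 (Dr.9892.2.S1_at). In that setting 29 were called lower, among them rbbp5 and mrps15 (Dr.9814.1.A1_at), which were not called without the weights. Those weights ran from 0.234 for wild type pool 3 to 5.40 for wild type pool 1. The share of all probe sets called with them is not available here, so the 4 and the 29 cannot be set against it. By size, 15 of the 23 decreases reached 1 array SD, out of 57 such decreases on the whole array. The median difference was -0.227 array SDs over the 52 probe sets and -0.00703 over all probe sets tested. Each mutant array lay below each wild type array for 28 of the 52 (13.3% of all probe sets tested) and above for 1 (11.3% of all).

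**Figure D1:**
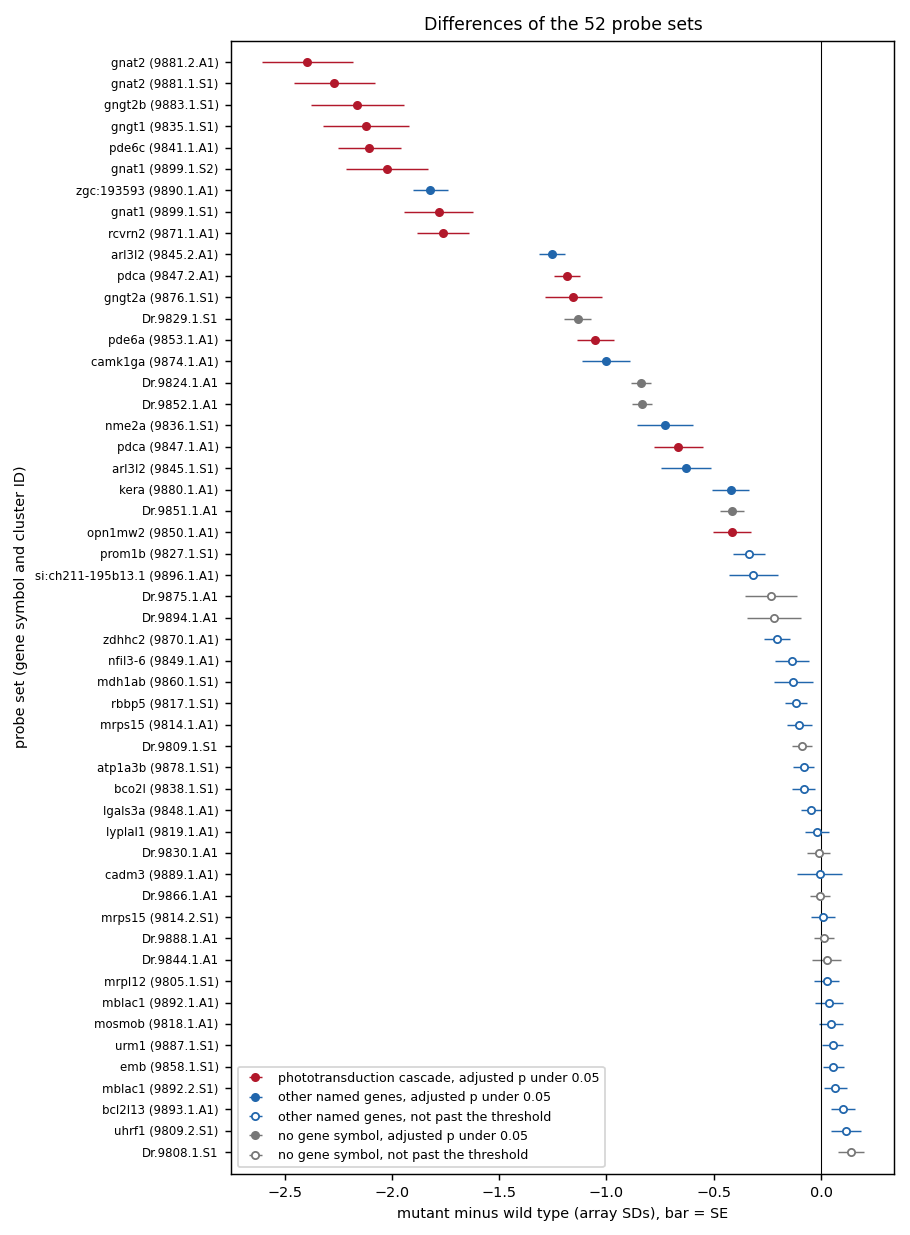
Difference between mutant and wild type larvae (x axis, array SDs) for each of the 52 probe sets (y axis, gene symbol with cluster ID), with bars of 1 standard error. Filled points had a limma adjusted p under 0.05: 13 phototransduction probe sets (red), 6 of other named genes (blue) and 4 with no gene symbol (grey). The differences run from -2.39 for a gnat2 probe set to 0.140 for Dr.9808.1.S1_at.

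The gene carrying the allele gave a check of the labels. The probe set of cdipt, Dr.13550.1.A1_at, read -1.20, -1.15 and -0.978 in mutant pools 1 to 3, against 0.408, 0.388 and 0.244 in wild type pools 1 to 3. The difference was -1.46 array SDs (SE 0.0722, limma adjusted p = 4.9e-05), lower on every array labelled mutant.

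The phototransduction probe sets fell together. All 13 of them, for 10 genes, passed the test as lower in mutants (1.81% of all probe sets tested). Their median difference was -1.78 array SDs (-0.00703 over all probe sets tested), with a range from -2.39 to -0.415. With ordinary in place of moderated variances 12 of these 13 calls were lost, at the same differences, with adjusted p from 0.0885 to 0.270, and Dr.9847.2.A1_at of pdca was kept. The group holds 13 of the 23 called decreases and 11 of the 15 that reached 1 array SD. The grouping was made after the values were seen. Because whole larvae were measured, fewer photoreceptors and less RNA per photoreceptor cannot be told apart.

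The alpha subunit of cone transducin, gnat2, was read by 2 probe sets. Dr.9881.1.S1_at stood at -0.356, -0.316 and 0.439 in mutant pools 1 to 3 and at 2.17, 2.30 and 2.10 in wild type pools 1 to 3, a difference of -2.27 (SE 0.191, limma adjusted p = 0.000581). Dr.9881.2.A1_at stood at -1.09, -0.890 and -0.135 in the mutant pools and at 1.82, 1.60 and 1.64 in the wild type pools, a difference of -2.39 (SE 0.214, limma adjusted p = 0.000811). Neither probe set had overlapping groups, and in both the third mutant pool was the highest of its group.

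Its rod counterpart gnat1 fell as well. Dr.9899.1.S1_at averaged -0.249 ± 0.231 in mutant pools and 1.53 ± 0.309 in wild type pools (SD, n = 3 each), a difference of -1.78 (SE 0.161, limma adjusted p = 0.000872). The arrays read -0.368, -0.397 and 0.0171 in mutant pools 1 to 3 and 1.71, 1.71 and 1.18 in wild type pools 1 to 3. Dr.9899.1.S2_at read -1.23, -1.26 and -0.666 in mutants and 1.18, 1.12 and 0.603 in wild type, a difference of -2.02 (SE 0.192, limma adjusted p = 0.000967). Here the third pool was the highest of the mutants and the lowest of the wild type, so that the gap between the groups was narrowest at that number.

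The transducin gamma subunits followed. The rod subunit gngt1 (Dr.9835.1.S1_at) read -0.251, -0.260 and 0.553 in mutants and 2.25, 2.16 and 1.99 in wild type, a difference of -2.12 (SE 0.201, limma adjusted p = 0.000967). The cone subunit gngt2b (Dr.9883.1.S1_at) read 0.446, 0.670 and 1.45 in mutants and 3.00, 3.01 and 3.04 in wild type, a difference of -2.16 (SE 0.216, limma adjusted p = 0.00123). The gngt2b SD between pools was 0.525 in mutants and 0.0209 in wild type. The other cone subunit gene, gngt2a (Dr.9876.1.S1_at), read -0.261, -0.569 and -0.362 in mutants and 0.941, 0.887 and 0.445 in wild type, a difference of -1.16 (SE 0.134, limma adjusted p = 0.00255).

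Both catalytic PDE6 genes of the range were lower in mutants. The cone gene pde6c (Dr.9841.1.A1_at) read -0.200, -0.301 and 0.305 in mutants and 1.97, 1.97 and 2.17 in wild type, a difference of -2.11 (SE 0.145, limma adjusted p = 0.000209). The rod gene pde6a (Dr.9853.1.A1_at) read -1.22, -1.31 and -1.23 in mutants and -0.0883, -0.108 and -0.420 in wild type, a difference of -1.05 (SE 0.0881, limma adjusted p = 0.000581). The pde6a signal lay between percentile 9.91 and percentile 12.1 of the mutant arrays, and no detection call was used here. With each array floored at its 25th percentile its difference was -0.485 and its limma adjusted p 0.0587, within a range from 4.5e-07 to 0.0986 over all alternatives.

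The opsin of the range changed least among these genes. The green cone opsin opn1mw2 (Dr.9850.1.A1_at) read -0.0637, 0.120 and -0.110 in mutants and 0.512, 0.451 and 0.227 in wild type. Its difference was -0.415 (SE 0.0884, limma adjusted p = 0.0491, and 0.00845 with replicate number as a block). The call was lost when mutant pool 1, 2 or 3 or wild type pool 1 or 2 was left out, with limma adjusted p of 0.161, 0.0507, 0.149, 0.209 and 0.111, and also with the floor at the 25th percentile (0.0966).

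Regulators of the cascade were lower too. Recoverin, a calcium sensor that restrains the opsin kinase, was read for rcvrn2 by Dr.9871.1.A1_at at -0.154, 0.0601 and 0.341 in mutants and 1.97, 1.71 and 1.85 in wild type, a difference of -1.76 (SE 0.121, limma adjusted p = 0.000209). Phosducin, which binds transducin beta and gamma subunits, was read for pdca by Dr.9847.2.A1_at at -0.944, -0.967 and -0.816 in mutants and 0.212, 0.356 and 0.261 in wild type, a difference of -1.19 (SE 0.0607, limma adjusted p = 5.48e-05). The other pdca probe set of the range, Dr.9847.1.A1_at, read -1.66, -1.51 and -1.42 in mutants and -0.757, -0.714 and -1.13 in wild type, a difference of -0.665 (SE 0.113, limma adjusted p = 0.0192). This pdca call rested on dim signals, at most at percentile 24.2 of any array. With the floor at the 25th percentile every array was at the floor. The difference of -0.0289 there (limma adjusted p = 0.471) is that of the floors and says nothing of pdca. Over the other alternatives the adjusted p ran from 2.44e-05 with limma's array weights to 0.224 with ordinary variances. The call was also lost without mutant pool 1 or 2 or wild type pool 1 or 2, with limma adjusted p of 0.0768, 0.0677, 0.107 and 0.0589.

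**Figure D2:**
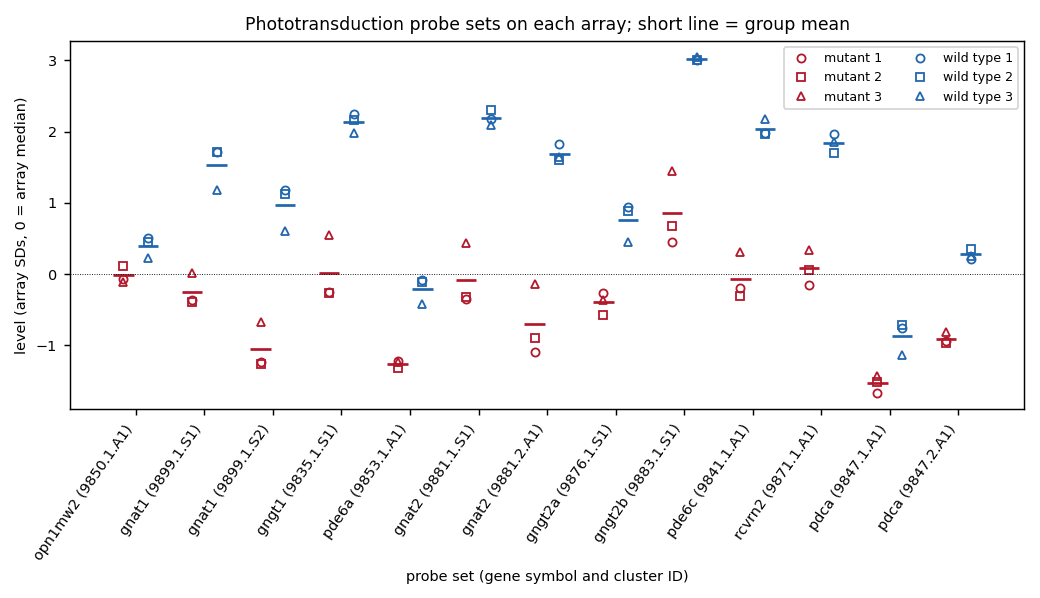
Level (y axis, array SDs, 0 being the array median) of the 13 phototransduction probe sets (x axis) on each array, mutant pools in red left of wild type pools in blue, with symbols for replicate numbers and short lines for group means. The groups do not overlap in any of the 13 (each mutant array lay below each wild type array for 13.3% of all probe sets tested). The red triangle of mutant pool 3 is the highest mutant value in 10 of the 13.

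Mutant pool 3 stood apart from the other mutant pools. It gave the highest mutant value for 10 of the 13 probe sets, where 37.5% of all probe sets tested had their highest mutant value there; pde6a, gngt2a and opn1mw2 were the exceptions. The mean of the 13 probe sets was -0.566, -0.534 and -0.127 in mutant pools 1 to 3 and 1.30, 1.27 and 1.07 in wild type pools 1 to 3. The median SD between pools over the 13 probe sets was 0.248 in mutants and 0.136 in wild type, against 0.0547 and 0.0719 over all probe sets tested. Without both arrays numbered 3 (a setting added after the values had been seen), all 13 were again called and their differences ran from -2.70 for Dr.9881.2.A1_at to -0.454 for opn1mw2.

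Genes of the same cascade outside the range also fell. A list of cascade genes by family name, written after the values were seen, matched 27 further probe sets, of which 17 were lower in mutants, 0 higher and 10 not called (limma, adjusted p under 0.05; 1.81% and 1.23% of all probe sets were lower and higher). None of the 27 was higher at an unadjusted p under 0.05 or with the replicate block. Opsins of other cones showed large decreases: the ultraviolet opsin opn1sw1 averaged 0.963 in mutants and 3.37 in wild type, and the blue opsin opn1sw2 averaged 0.845 in mutants and 2.93 in wild type. The green opsin opn1mw1 averaged 0.795 in mutants and 2.86 in wild type, whereas opn1mw4 and the red opsin opn1lw1 differed by -0.181 and -0.184 and were not called. Both were dim in either phenotype, opn1mw4 at -0.873 in mutants and -0.692 in wild type, and opn1lw1 at -0.780 and -0.596. Their mean percentiles in wild type were 24.1 and 27.3. For both, each mutant array lay below each wild type array (13.3% of all probe sets tested). The cone transducin beta subunit gnb3b averaged -0.0857 in mutants and 2.12 in wild type. The widely expressed beta subunits gnb1a and gnb1b differed by -0.207 to -0.0843 on 3 probe sets, none of them called.

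**Figure D3:**
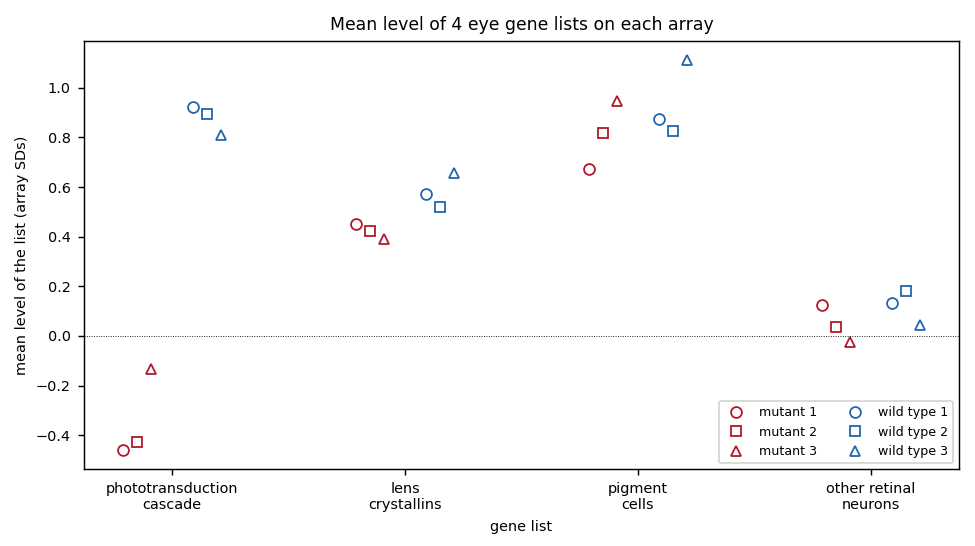
Mean level (y axis, array SDs) of 4 gene lists (x axis) on each array, mutant pools in red left of wild type pools in blue. The phototransduction list lies from -0.460 to -0.133 in mutants and from 0.812 to 0.924 in wild type, and the lens list from 0.389 to 0.452 in mutants and from 0.518 to 0.655 in wild type. The pigment cell and other retinal neuron lists overlap between the phenotypes.

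Lists of markers for other eye cells had medians nearer to 0, from -0.146 to 0.00613. Of 10 lens crystallin probe sets, all 10 had a negative difference (52.9% of all probe sets) and 2 passed the test as lower (1.81% of all), cryaa at -0.265 and crygm2c at -0.277, with a median of -0.146. The mean of the crystallin list did not overlap between groups, at 0.389 to 0.452 in mutants and 0.518 to 0.655 in wild type. Of 6 probe sets for pigment cells and the retinal pigment epithelium, 0 passed. At an unadjusted p under 0.05 by limma 1 was lower (8.69% of all) and 0 higher (8.18% of all). With the replicate block 2 were lower (2.36% of all). The list mean ran from 0.674 to 0.949 in mutants and from 0.825 to 1.11 in wild type. The 2 called with the block are those of rpe65a, the retinoid isomerase of the visual cycle, at -0.317 and -0.407 (limma adjusted p = 0.359 and 0.252, and 0.0460 and 0.0117 with the block). Of 15 probe sets for other retinal neurons and progenitors, 3 were lower (1.81% of all), 0 higher (1.23% of all) and 12 not called. At an unadjusted p under 0.05 by limma 1 was higher (8.18% of all), that of vsx1 at 0.191. A negative difference was found for 7 of the 15 (52.9% of all). The 3 called lower belong to rx1 and rx2, transcription factors that zebrafish photoreceptors also express, with differences from -0.468 to -0.412. Which cells gave the rx1 and rx2 signal was not tested. The part of the lens and retinal marker differences in the phototransduction decreases was not tested.

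Outside the cascade, 6 of 27 probe sets with a gene symbol were lower in mutants (1.81% of all probe sets tested), and they belong to 5 genes. The gene zgc:193593 (Dr.9890.1.A1_at) had a large decrease, at -1.28, -1.23 and -1.07 in mutants and 0.727, 0.676 and 0.481 in wild type, a difference of -1.82 with an SE of 0.0803 (limma adjusted p = 3.75e-05). The gene was called in 15 of 15 alternatives, and the mutant arrays lay no closer than 1.55 array SDs to any wild type array. The zgc:193593 signal lay between percentile 11.0 and percentile 15.2 of the mutant arrays, and its difference ran from -1.96 to -1.32 over the alternatives. The gene arl3l2, named for its likeness to ARL3, a small GTPase that in mammals releases lipid-modified cargo in cilia and photoreceptors, had 2 probe sets. Dr.9845.2.A1_at read -1.26, -1.16 and -1.04 in mutants and 0.0788, 0.150 and 0.0770 in wild type, a difference of -1.25 (SE 0.0625, limma adjusted p = 4.89e-05). Dr.9845.1.S1_at read -0.696, -0.526 and -0.434 in mutants and 0.0743, -0.152 and 0.308 in wild type, a difference of -0.629 (SE 0.115, limma adjusted p = 0.0269). That call was lost without mutant pool 1, mutant pool 2 or wild type pool 1 (limma adjusted p = 0.0964, 0.0837 and 0.125), with the floor (0.0734) and with ordinary variances (0.244), while that of Dr.9845.2.A1_at was kept in 15 of 15 alternatives. The Dr.9845.2.A1_at signal was dim, between percentile 11.4 and percentile 15.8 of the mutant arrays. With the floor at the 25th percentile its difference was -0.793.

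The last 3 named genes completed this group. The kinase gene camk1ga (Dr.9874.1.A1_at), for a calcium/calmodulin-dependent protein kinase, read -0.596, -0.865 and -0.422 in mutants and 0.468, 0.422 and 0.229 in wild type, a difference of -1.001 (SE 0.112, limma adjusted p = 0.00216). The gene nme2a (Dr.9836.1.S1_at), for a nucleoside diphosphate kinase, read 0.515, 0.511 and 0.854 in mutants and 1.22, 1.22 and 1.62 in wild type, a difference of -0.727 (SE 0.130, limma adjusted p = 0.0237, and 0.000159 with the replicate block). In nme2a both pools numbered 3 stood above the others of their phenotype, and the call was lost without mutant pool 1, mutant pool 2 or wild type pool 1 (limma adjusted p = 0.0940, 0.0910 and 0.0636), with the floor (0.0713) and with ordinary variances (0.241). Keratocan, a proteoglycan of the corneal stroma, was read for kera by Dr.9880.1.A1_at at -0.940, -0.617 and -0.658 in mutants and -0.320, -0.382 and -0.249 in wild type, a difference of -0.421 (SE 0.0867, limma adjusted p = 0.0437). The kera call was lost when any 1 of the 6 arrays was left out: without mutant pools 1 to 3 the limma adjusted p was 0.0569, 0.0556 and 0.0752, and without wild type pools 1 to 3 it was 0.179, 0.0721 and 0.0967. With ordinary variances the calls of kera and camk1ga were lost too (adjusted p = 0.259 and 0.127).

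**Figure D4:**
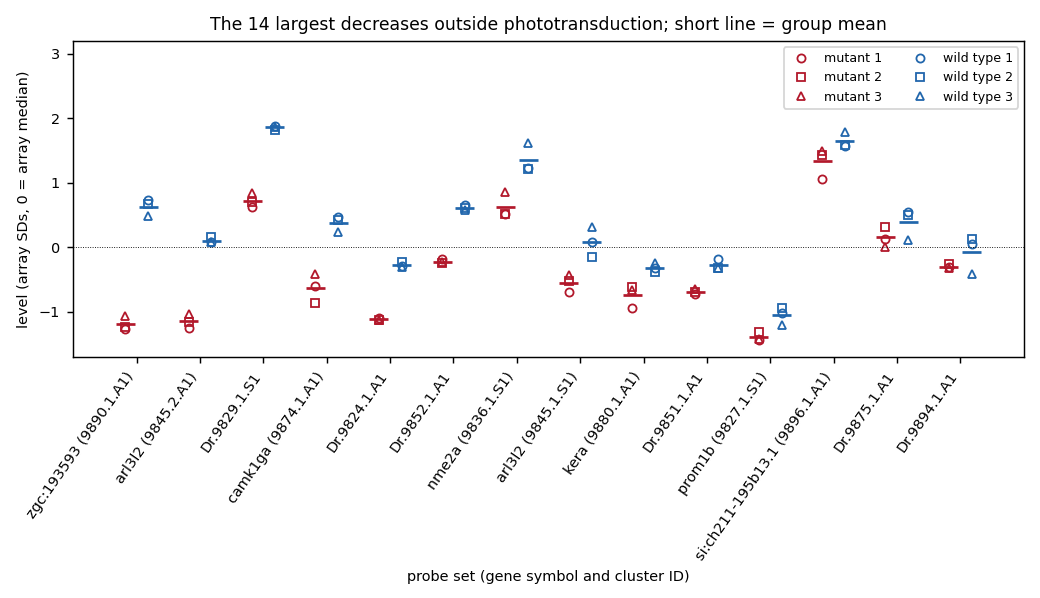
Level (y axis, array SDs) of the 14 probe sets with the largest decreases outside the phototransduction group (x axis, largest at the left), mutant pools in red left of wild type pools in blue, with short lines for group means. The groups do not overlap in the first 12, and Dr.9875.1.A1_at and Dr.9894.1.A1_at overlap. Each mutant array lay below each wild type array for 13.3% of all probe sets tested. Probe sets picked by the size of their decrease are likely to show such gaps.

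Of the 12 probe sets without a gene symbol, 4 were lower in mutants (1.81% of all probe sets tested). Dr.9829.1.S1_at read 0.625, 0.697 and 0.839 in mutants and 1.88, 1.82 and 1.87 in wild type, a difference of -1.13 (SE 0.0618, limma adjusted p = 5.67e-05). Dr.9824.1.A1_at read -1.10, -1.12 and -1.13 in mutants and -0.292, -0.236 and -0.313 in wild type, a difference of -0.839. Dr.9852.1.A1_at read -0.191, -0.253 and -0.233 in mutants and 0.646, 0.613 and 0.572 in wild type, a difference of -0.836. In the last 2 the mutant SD was 0.0156 and 0.0319, below those of the phototransduction probe sets. Mutant pool 3 was not the highest of its group in these 2, nor in pde6a, gngt2a and opn1mw2. The Dr.9824.1.A1_at signal was dim, between percentile 13.7 and percentile 14.6 of the mutant arrays. With the floor at the 25th percentile its difference was -0.410 (limma adjusted p = 0.00286). Dr.9851.1.A1_at read -0.726, -0.700 and -0.648 in mutants and -0.186, -0.326 and -0.317 in wild type, a difference of -0.415 (SE 0.0546, limma adjusted p = 0.00518, and 0.108 with ordinary variances).

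The other 29 probe sets were not called, and their differences ran from -0.337 to 0.140 with a median of -0.0118. Nearest to the threshold was prom1b (Dr.9827.1.S1_at), for a prominin whose mammalian relative shapes outer segment discs, at -1.45, -1.32 and -1.42 in mutants and -1.02, -0.949 and -1.21 in wild type. Its difference was -0.337 (SE 0.0738, limma adjusted p = 0.0541), and with the replicate block the adjusted p was 0.0155. Over all alternatives the adjusted p of prom1b ran from 0.000796 to 0.471. The 0.471 came with the floor at the 25th percentile, where every array was at the floor, so it says nothing of prom1b. The next highest was 0.260 with ordinary variances, and without wild type pool 3 the limma adjusted p was 0.00862. The gene si:ch211-195b13.1 (Dr.9896.1.A1_at) averaged 1.33 ± 0.233 in mutant pools and 1.64 ± 0.121 in wild type pools (SD, n = 3 each), a difference of -0.317 (limma adjusted p = 0.220, and 0.0462 with the replicate block, the lowest of its alternatives, which reached 0.442). With the block 25 probe sets of the range were called lower (2.36% of all probe sets) and 0 higher (2.33% of all), and the 23 calls were all among them. Dr.9894.1.A1_at differed by -0.219 (limma adjusted p = 0.412) with wild type pool 3 at -0.413, far below 0.0485 and 0.118 in the others; without that array the difference was -0.385 (limma adjusted p = 0.00607).

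The mitochondrial ribosomal protein genes mrpl12 and mrps15 differed by 0.0262 for mrpl12 and by -0.101 and 0.00898 for the 2 mrps15 probe sets. The histone methyltransferase subunit gene rbbp5 differed by -0.119, and the cytosolic malate dehydrogenase gene mdh1ab by -0.128. The sodium pump gene atp1a3b differed by -0.0814, the tRNA modification gene urm1 by 0.0537 and the palmitoyltransferase gene zdhhc2 by -0.205. The largest positive differences belonged to Dr.9808.1.S1_at at 0.140, to uhrf1, a factor that maintains DNA methylation, at 0.116, to the Bcl-2 family gene bcl2l13 at 0.101, to mblac1 (Dr.9892.2.S1_at) at 0.0668 and to emb, for embigin, at 0.0580. None of these probe sets passed the test in the fit without array weights (limma adjusted p from 0.139 for zdhhc2 to 0.950 for the mrps15 probe set Dr.9814.2.S1_at).

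The remaining uncalled probe sets lay between -0.234 and 0.0445. The transcription factor gene nfil3-6 differed by -0.135, the carotenoid oxygenase gene bco2l by -0.0813, the galectin gene lgals3a by -0.0470, lyplal1 by -0.0177, the adhesion gene cadm3 by -0.00682, mosmob by 0.0445 and the other mblac1 probe set by 0.0371. Dr.9875.1.A1_at differed by -0.234 and Dr.9809.1.S1_at by -0.0887. Dr.9830.1.A1_at, Dr.9844.1.A1_at, Dr.9866.1.A1_at and Dr.9888.1.A1_at had differences between -0.0118 and 0.0261. By mean over the 6 arrays the highest signals were those of Dr.9809.1.S1_at, gngt2b and si:ch211-195b13.1, up to 2.12, and the lowest those of mblac1 (Dr.9892.1.A1_at), emb and Dr.9888.1.A1_at, down to -1.56; these values reflect probe affinity as well as transcript amount.

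For gnat1, gnat2, pdca and arl3l2 both probe sets of the range were called lower. For mblac1 and mrps15 neither was called, and the 2 mrps15 probe sets differed in sign. Genes of the range had 6 more probe sets elsewhere on the array: a further pdca probe set differed by -0.213 (limma adjusted p = 0.0451, not called with the replicate block), whereas another rcvrn2 probe set, with means of -1.47 in mutants and -1.31 in wild type, was not called at -0.165 (limma adjusted p = 0.403). The other 4 were not called either: bcl2l13 at -0.0167 and lgals3a at 0.0493, each opposite in sign to its probe set in the range, and nfil3-6 at -0.0607 and uhrf1 at 0.0779. The letter A or S in the ID did not part the calls, with 14 of 30 A probe sets and 9 of 22 S probe sets lower, against 1.73% and 1.93% of all such probe sets.

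Clusters just outside the range give its edges. The first probe set inside belongs to mrpl12 and the last 2 to gnat1. Just below the range, 3 probe sets of yars1, for a tyrosyl-tRNA synthetase, differed by 0.382, 0.260 and 0.211 and were not called (limma adjusted p = 0.0711, 0.0804 and 0.332). Just above it, slc9a7 differed by 0.0141, and Dr.9901.1.S1_at, with no gene symbol, averaged -0.809 in mutants and -0.00100 in wild type, lower by the test (limma adjusted p = 0.00166). Among neighbouring stretches of numbers, 6 of 51 probe sets with clusters 9900 to 9999 and 1 of 55 with clusters 9700 to 9799 were lower, against 23 of 52 here and 1.81% of all probe sets. The 1 of 55 is 1.82%, close to that share. The stretch from 11200 to 11299, another part proposed from this series, held 12 lower calls among 72 probe sets. Because the range here was proposed with earlier results known, its larger count beside these stretches is a description only. No probe set of these 3 stretches was called higher (1.23% of all probe sets tested). At an unadjusted p under 0.05 by limma, 3, 4 and 3 were higher in stretches 9700 to 9799, 9900 to 9999 and 11200 to 11299 (8.18% of all).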

How the data were processed

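Total RNA of 6 pools, 3 of mutant and 3 of wild type larvae, was measured on 1-colour Affymetrix arrays. The submitters' processing notes name RMA, with no version. The deposited values are scores: the authors' table has a median of 0 and an SD of 1 on each array over 15617 rows, and no source used here gives the step that centred and scaled them. Precision is limited by the 3 arrays per phenotype.

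Of these rows, 115 control rows were left out and limma 3.58.1 in R 4.3.3 was fitted to the other 15502 by phenotype, with Benjamini-Hochberg adjustment and a threshold of 0.05. Symbols come from GEO's platform annotation, updated through Entrez identifiers to the RefSeq gene table: 10795 probe sets had 1 symbol, 135 several and 4572 none. Deviations of arrays with the same number correlated at 0.200, 0.166 and 0.367 for numbers 1 to 3. The main fit left the arrays unpaired, and the replicate number served as a block only as an alternative. Mutant 1 with wild type 2 (0.227) and mutant 2 with wild type 1 (0.167) correlated as much, so the correlations set apart number 3 but not 1 from 2. Values from the fit blocked on the replicate number are printed where they change a call, and also for opn1mw2 and nme2a, whose calls they do not change. The labels give a number only and do not say that equal numbers mark pairs.

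The members and gene lists were chosen with earlier results of these data known. The rule for naming took all called members, the 5 largest differences in each direction, the 3 highest and lowest levels, the 3 largest residual SDs and clusters with several members; all other members were named too, so that each is accounted for. The alternatives were 2 other scalings, the block, array weights, 2 variance settings, a filter and a floor at 25%, and each array left out.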

Additional observations from a re-analysis of the deposited data

How the results depend on the processing

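Against 23 lower calls (1.81% of all probe sets), quantile normalization and scaling by interquartile range gave 23 each, the replicate block 25 (2.36% of all), trended robust variances 24 and array weights 29. Shares over all probe sets are not available here for the settings other than the block, so their counts cannot be set against them. A floor at the 25th percentile gave 18, and leaving out 1 array 18 to 24. Leaving out the dimmest 25% of probe sets gave 20, where only 20 of the 23 called members were still tested and 0 of these lost their call. Ordinary variances gave 6 lower calls, with fewer degrees of freedom per probe set, of which 1 was a phototransduction probe set, 2 were other named and 3 unnamed. Without both arrays numbered 3, chosen after the data were seen, 26 were lower and the 23 calls were kept. Higher calls were 0 except with array weights, which gave 4, with no share over all probe sets available for that setting. The median difference was -0.317 without the dimmest 25%, over only the members that passed that filter, and -0.308 to -0.198 with 1 array left out. No called member changed sign. Uncalled members that did were as follows, and the cause was not tested. With quantile normalization mrps15 (Dr.9814.2.S1_at) was -0.0112, lyplal1 0.00246 and Dr.9866.1.A1_at 0.0306. With interquartile scaling mrpl12 was -0.0111, mrps15 -0.0145, lyplal1 2.15e-05 and Dr.9866.1.A1_at 0.0361. With array weights mrps15 was -0.0354, Dr.9830.1.A1_at 0.0179, Dr.9866.1.A1_at 0.0112, urm1 -0.00912 and cadm3 0.0625. With the floor mosmob was -0.00889, and emb, Dr.9888.1.A1_at and mblac1 (Dr.9892.1.A1_at) were -0.0289 each, since all arrays were at the floor. Without both arrays numbered 3, mrpl12 was -0.0181, mrps15 -0.0537, Dr.9830.1.A1_at 0.0553, Dr.9844.1.A1_at -0.00369, Dr.9866.1.A1_at 0.0102 and cadm3 0.0748. With 1 array left out the ranges were -0.0304 to 0.0569 for mrpl12, -0.0244 to 0.0405 for mrps15, -0.0683 to 0.0166 for lyplal1, -0.0355 to 0.0320 for Dr.9830.1.A1_at, -0.0348 to 0.0785 for Dr.9844.1.A1_at, -0.0229 to 0.0203 for Dr.9866.1.A1_at, -0.00817 to 0.0336 for Dr.9888.1.A1_at, -0.0721 to 0.119 for cadm3 and -0.0135 to 0.0828 for mblac1. The replicate block changed no call of the 52 other than adding prom1b and si:ch211-195b13.1. Scanner intensities were not used here, so signal over background limits the dim probe sets, and background correction was not varied.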
